A study of Mus musculus with 6 samples.

Results

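The circadian clock and output genes examined here were 10 rows of the gene table, chosen by symbol: Per1, Per2, Per3, Dbp, Tef, Nr1d1, Nr1d2, Ciart, Clock and Cry2. They are 10 of 22036 listed genes, each present once, and all 10 passed the filter on low counts. The libraries were Nanopore cDNA libraries of skeletal muscle from mice lacking PRR14, a nuclear protein. In 3 libraries the muscle had received an adeno-associated virus (AAV) carrying MEF2C-GFP, and in 3 an AAV carrying GFP. All 6 libraries were from knockout muscle taken 1 month after injection, with no wild-type library. MEF2C is a muscle transcription factor. The labels name neither the muscle, the animals' age or strain, the promoter of the virus, nor the hour of collection, and do not state whether each replicate is an animal of its own.

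The circadian clock is a feedback loop that runs in most cells, skeletal muscle included. BMAL1 (encoded by Arntl) pairs with CLOCK or NPAS2 and activates genes through E-boxes, among them the Per and Cry genes, the REV-ERB genes Nr1d1 and Nr1d2, Ciart, Dbp and Tef. PER and CRY proteins then repress that pair, REV-ERB proteins repress Arntl, and DBP and TEF drive a further set of genes through D-boxes. As a result, in mouse tissues the mRNAs of Nr1d1, Nr1d2, Ciart, Dbp and the Per genes peak through the day and around dusk, while those of Arntl, Npas2, Nfil3 and, weakly, Clock peak near dawn. A single time of collection therefore tends to set the dusk-peaking and dawn-peaking genes in opposite directions.

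The sequences around the start sites were searched for the elements of that loop. Of the 10 members, 9 had a promoter in RefSeq (GRCm38.p6), given as 250 bases before and 50 after each start site. Searched on both strands were the E-box CACGTG, the D-box TTANGTAA and the REV-ERB and ROR element TNGGTCA. The E-box occurs in 7.15% of all 32851 promoters of that length, the D-box in 2.32% and the REV-ERB and ROR element in 11.0%. Stretches are given for the members and dawn-peaking genes with a match outside annotated exons, with matches in capitals, each read on the gene's own strand. Ciart (chr3:95882252-95882359, minus strand) held 3 E-boxes, a number reached by 0.0883% of promoters. Per1 (chr11:69098768-69098803, plus strand) held 1 E-box. Tef (chr15:81811180-81811296, plus strand) held 1 E-box and, in the reverse orientation, 1 REV-ERB and ROR element. Per3 (chr4:151044762-151044885, minus strand) held 2 D-boxes, a number reached by 0.0822% of promoters, with 1 reverse REV-ERB and ROR element. Cry2 (chr2:92434181-92434217, minus strand) held 1 reverse REV-ERB and ROR element. Of the opposed genes, Arntl (chr7:113207250-113207305, plus strand) held 2 REV-ERB and ROR elements and Cry1 (chr10:85185094-85185129, minus strand) 1 E-box.
Ciart: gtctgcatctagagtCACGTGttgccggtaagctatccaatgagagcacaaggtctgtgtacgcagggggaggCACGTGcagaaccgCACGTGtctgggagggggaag
Per1: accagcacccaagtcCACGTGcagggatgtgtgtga
Tef: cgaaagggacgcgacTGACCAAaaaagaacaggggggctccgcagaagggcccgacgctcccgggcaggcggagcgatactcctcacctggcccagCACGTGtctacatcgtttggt
Per3: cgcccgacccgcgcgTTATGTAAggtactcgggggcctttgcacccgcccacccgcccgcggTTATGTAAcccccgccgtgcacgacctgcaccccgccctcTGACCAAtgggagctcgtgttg
Cry2: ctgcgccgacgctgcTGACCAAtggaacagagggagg
Arntl: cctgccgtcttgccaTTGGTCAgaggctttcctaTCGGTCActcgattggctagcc
Cry1: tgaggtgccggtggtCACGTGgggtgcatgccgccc
A further E-box at another start site of Tef and the REV-ERB and ROR element of Nfil3 lay in annotated exons and are not shown. Also not shown is a further REV-ERB and ROR element of Arntl, at position 30 after another start site. The promoters of Dbp, Nr1d1, Nr1d2, Clock and Npas2 held no match in this window, which says nothing of sites elsewhere in those genes. Per2 is the member with no entry.

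The libraries held 3370833 to 3900617 counts. The gene carried by the virus checks the labels: Mef2c stood at 234, 196 and 371 normalised CPM (read counts scaled to library size) in MEF2C replicates 1, 2 and 3, against 223, 261 and 236 in GFP replicates 1, 2 and 3. MEF2C replicates 1 and 2 lay within or below the GFP values, so directions are for the libraries labelled MEF2C. Prr14, the gene of the protein these mice lack, was counted in every library. It had 7.77, 5.73 and 4.84 normalised CPM in MEF2C replicates 1, 2 and 3, against 3.26, 3.83 and 3.98 in GFP replicates 1, 2 and 3. Its log2 fold change was 0.72 ± 0.32 (SE; edgeR adjusted p = 0.856). Muscle markers were present, with the 7 fixed skeletal muscle genes summing to between 87000 and 127000 CPM in the 6 libraries.

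No clock member differed between the libraries labelled MEF2C and the GFP libraries by the test used. In edgeR's quasi-likelihood test 0 of the 10 had an adjusted p under 0.05, as against 0.0758% of the 9229 genes tested (7 genes, called with Benjamini-Hochberg adjustment). At an unadjusted p under 0.05 there were also 0 members, where 5.71% of all genes passed. Limma-voom called 0 of the 10 as well, and DESeq2 0 of the 4 to which it gave an adjusted p, with 0 members at an unadjusted p under 0.05. Among the 10, 4 log2 fold changes were above 0 and the median was -0.21, where 52.2% of all tested genes were positive with a median of 0.0123. Groups did not overlap for 1 member, Cry2, where 11.1% of all tested genes had groups that did not overlap. In these bulk libraries fewer expressing cells and less RNA per cell cannot be told apart.

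**Figure D1:**
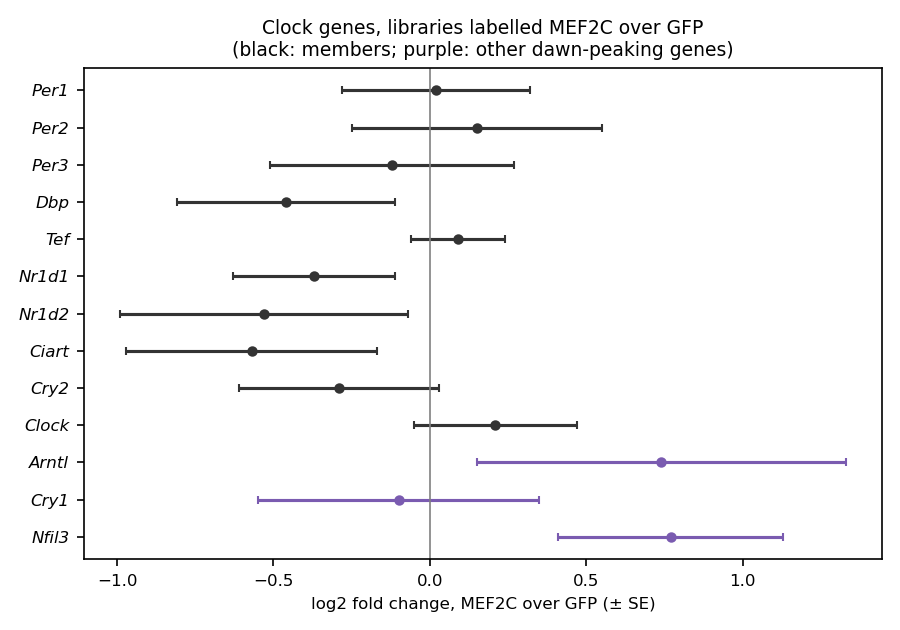
Log2 fold change (horizontal axis, libraries labelled MEF2C over GFP, ± SE) of the 10 members (black) and of Arntl, Cry1 and Nfil3 (purple), by edgeR. Dbp, Nr1d1, Nr1d2 and Ciart lay left of 0, Arntl and Nfil3 right of it, and none passed the test.

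Both REV-ERB repressors varied more among the libraries labelled MEF2C than among the GFP libraries, the highest value being 2.22 against 1.28 times the lowest for Nr1d1 and 3.07 against 2.05 times for Nr1d2. Nr1d1, which encodes REV-ERBα, a haem-binding nuclear receptor that silences Arntl (ENSMUSG00000020889, GRCm38 chromosome 11, 98767932 to 98775333), had 32.6, 72.5 and 47.7 normalised CPM in MEF2C replicates 1, 2 and 3, against 59.3, 62.5 and 75.8 in GFP replicates 1, 2 and 3. MEF2C replicates 1 and 3 lay below all GFP libraries, and MEF2C replicate 2 lay among them. Across the groups this gave a log2 fold change of -0.37 ± 0.26 (SE; edgeR adjusted p = 0.965). Without MEF2C replicate 2 it was -0.72, and without MEF2C replicate 1 it was -0.14. The last exons of Nr1d1 run against those of Thra on the opposite strand over 263 bases, 8.55% of its exonic bases, and strand use in counting is not given. Thra stood between 4.40 and 8.95 normalised CPM in the 6 libraries.

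Nr1d2, encoding the related repressor REV-ERBβ (ENSMUSG00000021775, chromosome 14, 18204054 to 18239127), had 9.85, 16.4 and 30.2 normalised CPM in MEF2C replicates 1, 2 and 3, against 38.5, 18.8 and 24.4 in GFP replicates 1, 2 and 3. The groups overlapped, with MEF2C replicate 1 the lowest of all and GFP replicate 1 the highest. Its log2 fold change was -0.53 ± 0.46 (SE; edgeR adjusted p = 0.993). It was -1.05 without MEF2C replicate 3, -0.23 without MEF2C replicate 1 and -0.21 without GFP replicate 1. The partners did not rank the libraries alike: MEF2C replicate 2 was above MEF2C replicate 3 for Nr1d1 and below it for Nr1d2.

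Ciart, also called CHRONO, a repressor of the CLOCK and BMAL1 pair (ENSMUSG00000038550, chromosome 3, 95878503 to 95882251), showed the widest spread of the members within the libraries labelled MEF2C. It had 2.33, 9.21 and 4.84 normalised CPM in MEF2C replicates 1, 2 and 3, against 9.18, 6.38 and 8.75 in GFP replicates 1, 2 and 3. The highest of the MEF2C values was 3.95 times the lowest, and the highest GFP value 1.44 times the lowest. MEF2C replicate 1 rests on 9 counts, with an exact 95% counting interval of 1.07 to 4.43 CPM. That interval lies below the one of MEF2C replicate 2, 6.49 to 12.7 CPM. Ciart had a log2 fold change of -0.57 ± 0.40 (SE; edgeR adjusted p = 0.963). Without MEF2C replicate 2 it was -1.17, and without MEF2C replicate 1 it was -0.22.

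The output regulators Dbp and Tef, both bZIP activators of D-box genes, behaved differently. Dbp (ENSMUSG00000059824, chromosome 7, 45705088 to 45710203) had 14.3, 40.1 and 35.3 normalised CPM in MEF2C replicates 1, 2 and 3, against 42.1, 36.4 and 45.3 in GFP replicates 1, 2 and 3. A single library stood apart: MEF2C replicate 1, with a counting interval of 10.7 to 18.5 CPM, lay below the intervals of the other 5 libraries, the lowest of which began at 29.8. The log2 fold change was -0.46 ± 0.35 (SE; edgeR adjusted p = 0.976), and -0.14 without MEF2C replicate 1. Dbp shares 539 exonic bases, 18.0% of its total, with Sphk2 on the opposite strand, which stood between 3.89 and 7.47 normalised CPM.

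Tef (ENSMUSG00000022389, chromosome 15, 81802421 to 81826863) had 90.2, 87.7 and 93.9 normalised CPM in MEF2C replicates 1, 2 and 3, against 103, 83.0 and 70.0 in GFP replicates 1, 2 and 3. The libraries labelled MEF2C lay inside the range of the GFP libraries, and MEF2C replicate 1 did not stand apart. Tef had a log2 fold change of 0.09 ± 0.15 (SE; edgeR adjusted p = 0.993). Hlf, the other activator of this bZIP family, had 7.25, 6.72 and 6.78 normalised CPM in MEF2C replicates 1, 2 and 3, against 7.11, 8.61 and 5.57 in GFP replicates 1, 2 and 3. It too gave no low value in MEF2C replicate 1.

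The period genes encode the PER repressors. Per1 (ENSMUSG00000020893, chromosome 11, 69095217 to 69109960) had 5.96, 4.48 and 5.57 normalised CPM in MEF2C replicates 1, 2 and 3, against 6.22, 5.42 and 4.24 in GFP replicates 1, 2 and 3. All 6 values lay close together, with a log2 fold change of 0.02 ± 0.30 (SE; edgeR adjusted p = 0.998). Per2 (ENSMUSG00000055866, chromosome 1, 91415982 to 91459324) had 2.85, 6.47 and 6.53 normalised CPM in MEF2C replicates 1, 2 and 3, against 7.41, 3.51 and 3.45 in GFP replicates 1, 2 and 3. High and low libraries occurred in both groups, and the log2 fold change was 0.15 ± 0.40 (SE; edgeR adjusted p = 0.993). Per3 (ENSMUSG00000028957, chromosome 4, 151003652 to 151044665) had 3.63, 2.74 and 5.32 normalised CPM in MEF2C replicates 1, 2 and 3, against 5.33, 2.23 and 5.04 in GFP replicates 1, 2 and 3. Its groups overlapped almost fully, at -0.12 ± 0.39 on the log2 scale (SE; edgeR adjusted p = 0.993). The sign of the fold change turned for each of the 3 Per genes when some single libraries were left out.

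Clock and Cry2 varied little within either group. Clock, which encodes the partner of BMAL1 (ENSMUSG00000029238, chromosome 5, 76209868 to 76304792), had 7.51, 6.47 and 7.99 normalised CPM in MEF2C replicates 1, 2 and 3, against 6.22, 6.70 and 6.10 in GFP replicates 1, 2 and 3. Clock had a log2 fold change of 0.21 ± 0.26 (SE; edgeR adjusted p = 0.993). Cry2, a cryptochrome repressor (ENSMUSG00000068742, chromosome 2, 92403646 to 92434043), had 3.11, 3.49 and 3.39 normalised CPM in MEF2C replicates 1, 2 and 3, against 4.15, 3.83 and 4.24 in GFP replicates 1, 2 and 3. Every library labelled MEF2C lay below every GFP library after scaling, by a small step. The counts themselves overlapped, at 12, 14 and 14 in MEF2C replicates 1, 2 and 3, against 14, 12 and 16 in GFP replicates 1, 2 and 3. The counting intervals of all libraries overlapped too. The log2 fold change was -0.29 ± 0.32 (SE; edgeR adjusted p = 0.993), on a mean of 13.7 counts per library, and did not pass the test.

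**Figure D2:**
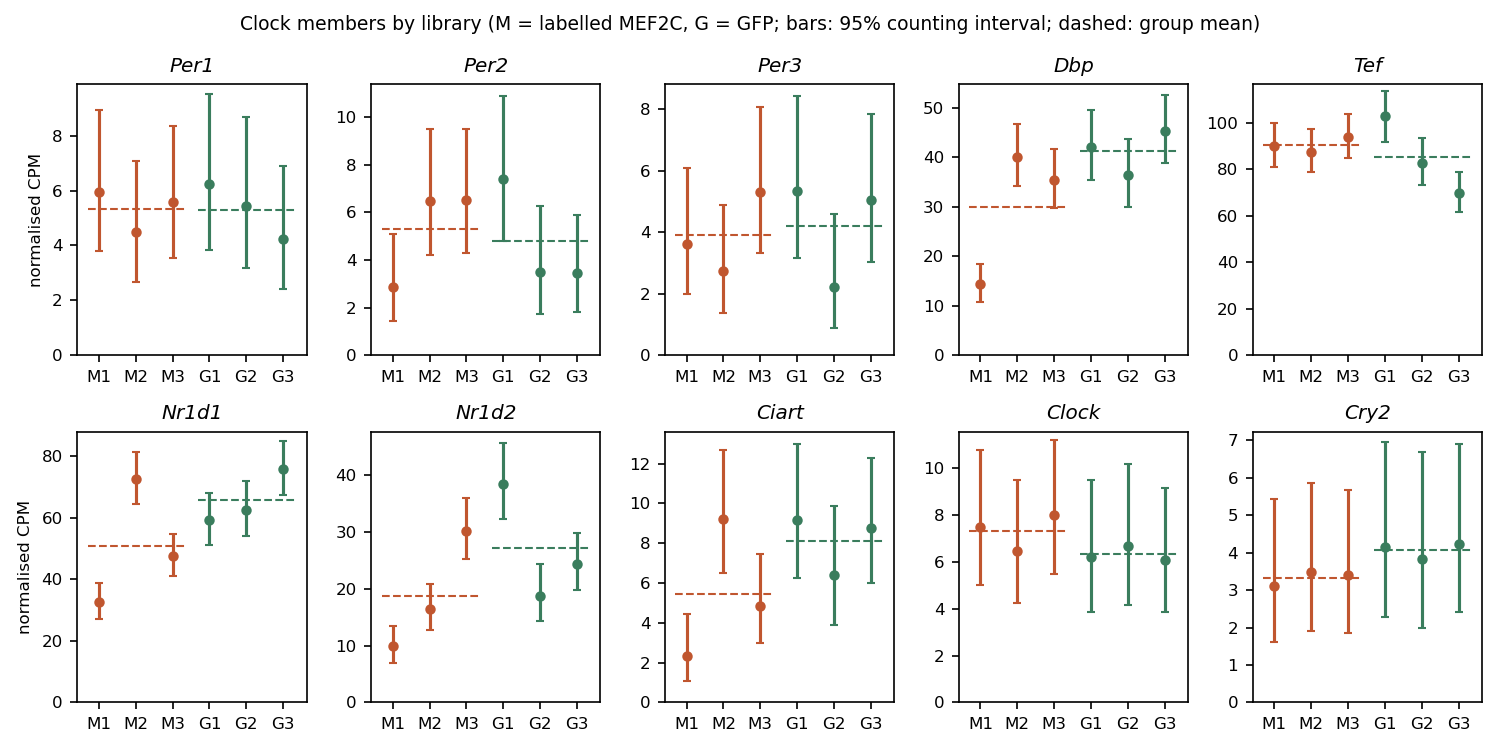
Normalised CPM (vertical axes from 0) of the 10 members in each library, M1 to M3 labelled MEF2C and G1 to G3 GFP, with exact 95% counting intervals and dashed group means. M1 is the lowest library for Dbp (14.3), Nr1d1 (32.6), Nr1d2 (9.85) and Ciart (2.33), whereas Tef, Per1 and Clock do not set it apart.

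The dawn-peaking genes served as the opposed side of the clock. Arntl, the BMAL1 gene (ENSMUSG00000055116, chromosome 7, 113207465 to 113314126), had 6.74, 1.49 and 7.50 normalised CPM in MEF2C replicates 1, 2 and 3, against 5.04, 2.87 and 1.59 in GFP replicates 1, 2 and 3. These rest on 26, 6 and 31 counts, against 17, 9 and 6 counts. MEF2C replicate 2 and GFP replicate 3 were the low libraries, and MEF2C replicates 1 and 3 the high ones. The log2 fold change was 0.74 ± 0.59 (SE; edgeR adjusted p = 0.98). Without GFP replicate 1 it was 1.24, while it was 0.38 without MEF2C replicate 3 and 0.39 without GFP replicate 3. It was 1.17 without MEF2C replicate 2.

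Nfil3, a bZIP repressor that competes with DBP and TEF for D-boxes (ENSMUSG00000056749, chromosome 13, 52967209 to 52981073), had 18.1, 6.72 and 13.1 normalised CPM in MEF2C replicates 1, 2 and 3, against 4.74, 8.30 and 9.01 in GFP replicates 1, 2 and 3. As with Arntl, MEF2C replicates 1 and 3 were the high libraries. MEF2C replicate 2, the lowest library for Arntl, lay among the GFP values for Nfil3. The log2 fold change was 0.77 ± 0.36 (SE; edgeR adjusted p = 0.892), and 0.42 without MEF2C replicate 1. Cry1, a cryptochrome repressor that peaks later than the Per genes, had 2.85, 2.49 and 5.32 normalised CPM in MEF2C replicates 1, 2 and 3, against 1.78, 6.38 and 3.45 in GFP replicates 1, 2 and 3, with no order by group. Npas2, which can stand in for CLOCK, had at most 2 counts in any library and was not tested.

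**Figure D3:**
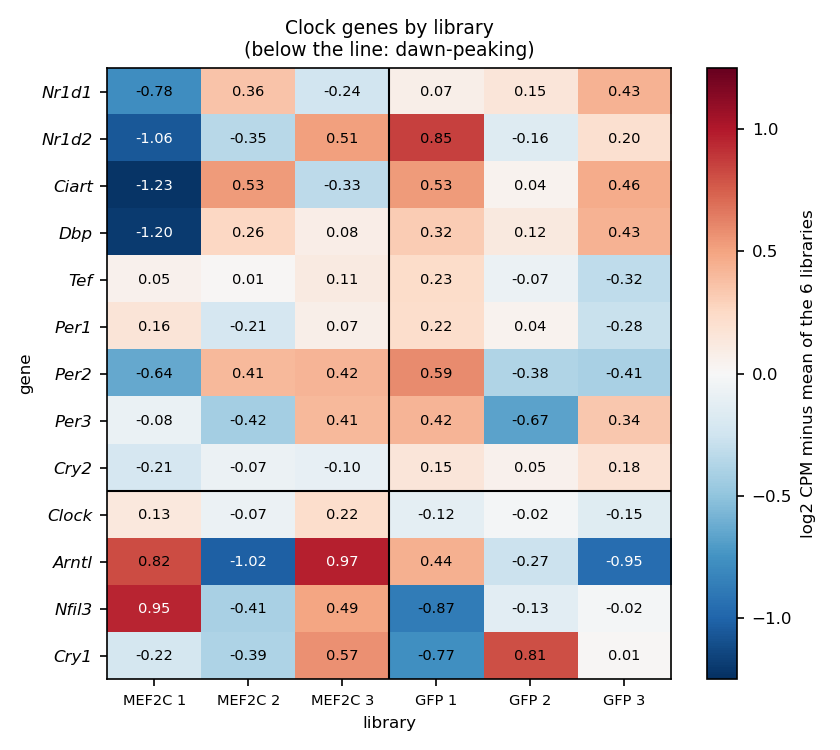
Each cell gives the log2 CPM of a gene (rows) in a library (columns) minus its mean over the 6 libraries, dusk-peaking and Cry2 rows above the line and dawn-peaking rows below. MEF2C replicate 1 is at -0.78 to -1.23 for Nr1d1, Nr1d2, Ciart and Dbp, and at 0.82 and 0.95 for Arntl and Nfil3.

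Phase-opposed ratios within a library do not depend on how libraries are scaled, and were used to ask whether the libraries stood at different points of the cycle. The counts of Dbp were 2.12, 26.8 and 4.71 times those of Arntl in MEF2C replicates 1, 2 and 3, against 8.35, 12.7 and 28.5 times in GFP replicates 1, 2 and 3. The exact 95% counting intervals were 1.30 to 3.51, 12.1 to 74.2 and 3.18 to 7.18 in the libraries labelled MEF2C. In the GFP libraries they were 5.04 to 14.7, 6.44 to 28.4 and 12.8 to 78.7. Thus MEF2C replicate 2 stood next to GFP replicate 3, and its interval shared no value with those of MEF2C replicates 1 and 3. MEF2C replicate 1 lay below all GFP libraries by interval, while that of MEF2C replicate 3 overlapped GFP replicates 1 and 2.

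Nr1d1 gave a similar order. Its counts were 4.85, 48.5 and 6.35 times those of Arntl in MEF2C replicates 1, 2 and 3, against 11.8, 21.8 and 47.7 times in GFP replicates 1, 2 and 3. For Ciart the ratios were 0.346, 6.17 and 0.645 in MEF2C replicates 1, 2 and 3, against 1.82, 2.22 and 5.50 in GFP replicates 1, 2 and 3. In each of these ratios MEF2C replicates 1 and 3 were the lowest libraries, and MEF2C replicate 2 and GFP replicate 3 the highest. The 3 ratios share the Arntl counts, so that they are not independent of each other. Tef, which did not set MEF2C replicate 1 apart, had the same lowest and highest libraries when set against Arntl. Its log2 ratios were 3.64, 5.44 and 3.55 in MEF2C replicates 1, 2 and 3, against 4.21, 4.61 and 5.05 in GFP replicates 1, 2 and 3. These extremes thus rest in part on Arntl itself, which had 6 to 31 counts per library. Nr1d1 against Nfil3, which leaves Arntl out, gave log2 ratios of 0.83, 3.33 and 1.83 in MEF2C replicates 1, 2 and 3, against 3.50, 2.84 and 3.0 in GFP replicates 1, 2 and 3. Here too MEF2C replicates 1 and 3 were low and MEF2C replicate 2 lay among the GFP libraries, although GFP replicate 1 was now the highest. For MEF2C replicate 3 this holds for Nr1d1 only, since no other dusk-peaking gene was set against Nfil3. In that library Nr1d1, Ciart and Dbp were themselves below all GFP libraries. Nr1d2, at 30.2 normalised CPM, and Per2, at 6.53, lay within the GFP range there.

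**Figure D4:**
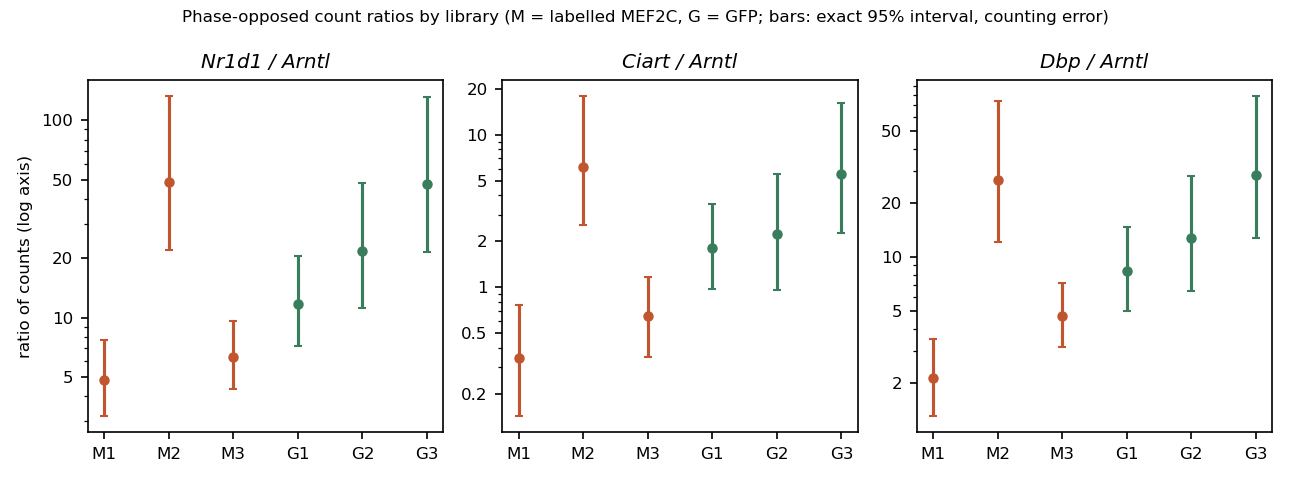
Ratio of the counts of Nr1d1, Ciart and Dbp to those of Arntl (log axes) in each library, with exact 95% intervals for counting error. M1 and M3 are the lowest points in each panel, and M2 stands with G3 at the top.

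Over the whole lists the contrast was smaller. The dusk-peaking genes alone had a mean log2 CPM of 3.36, 4.03 and 4.08 in MEF2C replicates 1, 2 and 3, against 4.36, 3.84 and 4.06 in GFP replicates 1, 2 and 3. On that side MEF2C replicate 3 was not low. The mean log2 CPM of the 8 dusk-peaking genes minus that of the 5 dawn-peaking genes (Arntl, Npas2, Clock, Cry1 and Nfil3) was 1.16, 2.44 and 1.78 in MEF2C replicates 1, 2 and 3, against 2.77, 1.90 and 2.23 in GFP replicates 1, 2 and 3. The groups overlapped, and averaged 1.79 ± 0.64 in the libraries labelled MEF2C and 2.30 ± 0.44 in the GFP libraries (SD, n = 3 each). The difference between groups of -0.51 was smaller in size than the SD pooled over both groups, 0.55, though larger than the GFP SD. It was -0.19 without MEF2C replicate 1, -0.83 without MEF2C replicate 2 and -0.27 without GFP replicate 1. For Dbp against Arntl the log2 ratio averaged 2.50 ± 1.68 in the libraries labelled MEF2C and 3.60 ± 0.76 in the GFP libraries (SD, n = 3 each), a difference of -1.10, and of -0.36 without MEF2C replicate 1. It was -2.01 without MEF2C replicate 2 and -0.68 without GFP replicate 3. Npas2 enters the contrast at or near the value that the prior count gives. Without it, a setting chosen after seeing the data, the contrast was 0.39, 1.95 and 0.98 in MEF2C replicates 1, 2 and 3, against 2.15, 1.20 and 1.79 in GFP replicates 1, 2 and 3, and the groups differed by -0.60. No collection time stands in the labels, and whether it differed between libraries was not tested.

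MEF2C replicate 1 was the lowest of the 6 libraries for 6 of the 10 members, namely Per2, Dbp, Nr1d1, Nr1d2, Ciart and Cry2, where 17.9% of all tested genes had their lowest value there. GFP replicate 1 was the highest library for 5 of the 10, against 18.2% of all tested genes. Granulocyte and erythroid marker genes also set MEF2C replicate 1 apart. The 9 granulocyte markers summed to 1250, 7.72 and 6.05 CPM in MEF2C replicates 1, 2 and 3, against 4.15, 4.15 and 78.7 in GFP replicates 1, 2 and 3. Of these, Mpo and Ngp were at 0 in 4 libraries and Ltf and Camp in 3. The 5 erythroid genes summed to 8630, 4390 and 4850 CPM in MEF2C replicates 1, 2 and 3, against 3720, 3080 and 4170 in GFP replicates 1, 2 and 3, and none was at 0. Other lists did not set this library apart. Its macrophage (55.4 CPM), Schwann (262) and smooth muscle and pericyte (893) sums lay within the range of the other libraries. Its adipocyte sum was 2920 CPM, against 2930 in GFP replicate 1, the next lowest. Most of that sum was Car3, at 2010 CPM in MEF2C replicate 1 and 2120 in GFP replicate 1. Each of the other adipocyte genes was highest in MEF2C replicate 2. The endothelial sum of MEF2C replicate 1 was 322 CPM, against 317 in GFP replicate 2, the next highest. The part of granulocyte and erythroid genes in the low clock values of MEF2C replicate 1 was not tested.

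Slow-fibre genes ordered the libraries differently from the clock ratios. The 9 slow-fibre markers summed to 1690, 1660 and 422 CPM in MEF2C replicates 1, 2 and 3, against 208, 198 and 265 in GFP replicates 1, 2 and 3. MEF2C replicates 1 and 2, the highest for slow-fibre genes, had Dbp to Arntl ratios of 2.12, the lowest, and 26.8, next to the highest. Whether slow-fibre content bears on the clock values was not tested.

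Glucocorticoids, the adrenal hormones whose release is itself rhythmic, act on several clock genes, Per1 included, and their target genes were examined for that reason. By edgeR 0 of the 15 tested genes of the glucocorticoid-responsive list passed over all genes, and 4 had an unadjusted p under 0.05, with 0 called by limma-voom, and 0 by DESeq2 of the 9 to which it gave an adjusted p. All 15 log2 fold changes were above 0, and their median was 0.61. Over all tested genes 52.2% were positive with a median of 0.0123, and 5.71% had an unadjusted p under 0.05 by edgeR. MEF2C replicate 1 was the highest library for 11 of the 15, where 17.7% of all tested genes had their highest value there. Foxo3, a transcription factor of atrophy genes, had 5.44, 7.47 and 8.71 normalised CPM in MEF2C replicates 1, 2 and 3, against 3.85, 4.47 and 3.71 in GFP replicates 1, 2 and 3. Its log2 fold change was 0.85 ± 0.31 (SE; edgeR adjusted p = 0.797).

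Sgk1, a kinase induced by corticosteroids, had 414, 230 and 262 normalised CPM in MEF2C replicates 1, 2 and 3, against 206, 220 and 167 in GFP replicates 1, 2 and 3. The groups did not overlap, and MEF2C replicate 1 was far above the rest, at a log2 fold change of 0.61 ± 0.22 (SE; edgeR adjusted p = 0.808). Tsc22d3, which encodes the glucocorticoid-induced leucine zipper protein and was named after its values were seen, had 1210, 557 and 722 normalised CPM in MEF2C replicates 1, 2 and 3, against 485, 621 and 546 in GFP replicates 1, 2 and 3. MEF2C replicates 1 and 3, the lowest libraries for the Dbp to Arntl ratio, were the highest for Tsc22d3, and MEF2C replicate 2 lay among the GFP libraries. Per1, the clock member on this list, did not share that order. The part of these genes in the clock values was not tested.

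**Figure D5:**
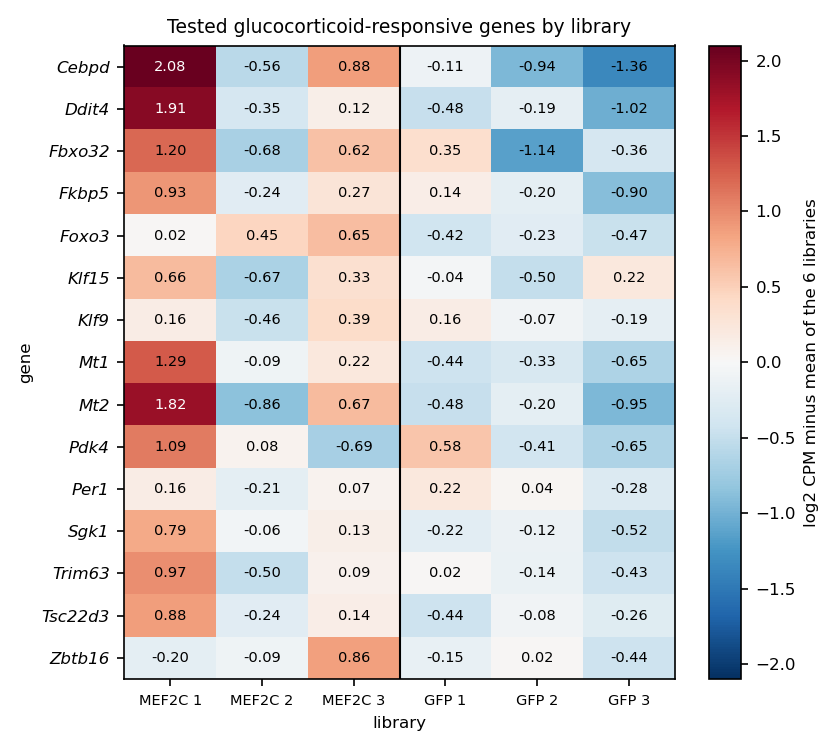
Log2 CPM minus the mean of the 6 libraries for the 15 tested glucocorticoid-responsive genes (rows) in each library (columns). MEF2C replicate 1 is highest for 11 of the 15, and reaches 2.08 for Cebpd.

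Among the other core clock and clock-modifying genes, 0 of the 13 tested and reported here were called by edgeR or limma-voom, and 0 by DESeq2 of the 3 to which it gave an adjusted p. Of the 13, edgeR placed 0 at an unadjusted p under 0.05, and 5 were positive, with a median log2 fold change of -0.06. The shares over all tested genes were 5.71% and 52.2%. The smallest p-values were those of Nfil3, given above, and of Bhlhe41, which encodes the repressor DEC2. Bhlhe41 had 1.81, 2.74 and 2.66 normalised CPM in MEF2C replicates 1, 2 and 3, against 4.44, 1.91 and 3.98 in GFP replicates 1, 2 and 3. The groups overlapped, at a log2 fold change of -0.52 ± 0.41 (SE; edgeR adjusted p = 0.976) and a mean of 10.8 counts per library. Rora, a nuclear receptor that activates Arntl, had 27.5, 22.2 and 41.9 normalised CPM in MEF2C replicates 1, 2 and 3, against 34.7, 27.4 and 39.8 in GFP replicates 1, 2 and 3, with groups that overlapped. The casein kinase genes Csnk1d and Csnk1e, whose products mark PER proteins for decay, had log2 fold changes of -0.23 ± 0.24 and 0.06 ± 0.28 (SE; edgeR adjusted p = 0.993 each). Rora and the kinase genes were named after their values were seen.

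Of the rhythmic output genes, 0 of 15 tested were called by edgeR or limma-voom and 3 had an unadjusted p under 0.05, with 10 of 15 positive and a median log2 fold change of 0.10. Over all tested genes 5.71% had an unadjusted p under 0.05 and 52.2% were positive. Txnip, a brake on glucose uptake, had 144, 73.7 and 170 normalised CPM in MEF2C replicates 1, 2 and 3, against 58.1, 62.9 and 55.7 in GFP replicates 1, 2 and 3. All libraries labelled MEF2C were above all GFP libraries, but MEF2C replicate 2 only slightly, and the log2 fold change was 1.14 ± 0.29 (SE; edgeR adjusted p = 0.659). Groups did not overlap for 11.1% of all tested genes. DESeq2 called Txnip, with an adjusted p of 0.00344, as 1 of the 9 genes of the list to which it gave an adjusted p. Lpl, the lipoprotein lipase gene, stood at 335 ± 53.2 normalised CPM in the libraries labelled MEF2C and 248 ± 36.4 in the GFP libraries (SD, n = 3 each; edgeR adjusted p = 0.749). Usp2, a ubiquitin protease whose mRNA is rhythmic in many tissues, had 188, 215 and 193 normalised CPM in MEF2C replicates 1, 2 and 3, against 199, 225 and 188 in GFP replicates 1, 2 and 3, with no library apart. Coq10b had 5.70, 13.2 and 8.95 normalised CPM in MEF2C replicates 1, 2 and 3, against 12.4, 14.4 and 15.1 in GFP replicates 1, 2 and 3, in which MEF2C replicates 1 and 3 were again lowest. Usp2 and Coq10b were named after their values were seen.

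Immediate early genes, which respond within minutes to activity and handling, had 0 of 8 tested members called by edgeR or limma-voom, and 0 by DESeq2 of the 3 with an adjusted p. Of the 8, edgeR placed 1 at an unadjusted p under 0.05, and 5 were positive, with a median log2 fold change of 0.35. The shares over all tested genes were 5.71% and 52.2%. Nr4a1 had 88.4, 120 and 114 normalised CPM in MEF2C replicates 1, 2 and 3, against 120, 165 and 135 in GFP replicates 1, 2 and 3, a log2 fold change of -0.38 ± 0.16 (SE; edgeR adjusted p = 0.841). Ier2 had 3.89, 3.98 and 5.57 normalised CPM in MEF2C replicates 1, 2 and 3, against 5.93, 6.06 and 8.22 in GFP replicates 1, 2 and 3 (edgeR adjusted p = 0.927).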

How the data were processed

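Read counts per gene, deposited by the authors as whole numbers, were analysed for 6 libraries. The deposited CPM, per the file headers, were used only to recover library totals, of which the listed counts were 95.6% to 96.4%. The submitters' processing notes name minimap2, GRCm38 and DESeq2 1.6.3, without roles. How reads were counted, with which annotation and strand setting, is not given in the sources used here. The table's 30 rows naming no gene held no counts and were left out.

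The gene test was edgeR 4.0.16, run in R 4.3.3 (robust quasi-likelihood fit, filter by group, TMM scaling, no covariate), with Benjamini-Hochberg adjustment over 9229 genes and a threshold of 0.05. Log2 CPM had a prior count of 2. Standard errors came from the F statistic. The fit was tested on simulated data. Coordinates came from GENCODE vM21 (GRCm38). Counting intervals are exact (95%) and cover counting error only, since reads carry no molecular identifiers. Between 13001 and 13637 genes were detected per library, and a count of 0 allows 0.769 to 0.890 CPM. P-values measure the spread between these samples, which may be technical. No pair of libraries of a group agreed within sampling noise (chi-square per degree of freedom 4.95 to 10.3).

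The text names all members, the dawn-peaking genes and, per list, up to 3 called genes or the 2 of smallest p. Members and lists were chosen with earlier results of these data known. In the list of other core clock genes 1 gene is not reported here, and the list's counts and smallest p-values leave it out. Alternatives were other scalings, filters and tests (DESeq2 1.42.0, limma 3.58.1), a block on replicate number and leaving out each library.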

Additional observations from a re-analysis of the deposited data

How the results depend on the processing

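No clock member was called under any of the 15 alternatives; the stricter filter left 6 of the 10, and DESeq2 gave an adjusted p to 4. Of 189 fold changes recomputed for 13 clock genes, 174 did not turn sign. These include values that rounded to 0.00, such as Per3 with library totals and Per1 with no low-count filter. The smallest adjusted p of the 189 was 0.51, with 9 that had none. The 15 that turned sign belonged to 5 genes. Cry1, at -0.10, was 0.05 with library totals. Leaving out each library gave -0.13 to 0.14 for Per1, -0.05 to 0.59 for Per2, -0.42 to 0.08 for Per3, -0.04 to 0.23 for Tef and -0.51 to 0.43 for Cry1. The cause was not tested.

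The count of 7 genes called became 4 without the 50 most abundant genes in the library size, 35 with no low-count filter, 3 with the stricter filter, 27 with DESeq2, 3 with limma-voom, 0 with non-robust dispersion (557 at an unadjusted p under 0.05) and 2 with the replicate block. Leaving out each library gave 0 to 22, with 0 without GFP replicate 3 (386 at an unadjusted p under 0.05). Same-numbered libraries had correlations of -0.235, 0.048 and -0.251, and so showed no sign of pairing by number. With values centred within each small group, these correlations cannot decide whether the libraries were paired. The block called 0 members.

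The group difference in the contrast of dusk-peaking and dawn-peaking genes lay between -0.83 and -0.19 without each library, and was -0.63 from summed CPM and -0.60 without Npas2. The summed form raised every library's value, to 2.20, 3.78 and 2.76 in MEF2C replicates 1, 2 and 3, against 3.93, 3.17 and 3.52 in GFP replicates 1, 2 and 3. Of the members and dawn-peaking genes tested, those with a mean under 20 counts per library were Cry2 and Cry1 (13.7 each), Per3 (15.2), Arntl (15.8), Per2 (18.8) and Per1 (19.7).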

Other observations

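The tested genes outside the lists whose log2 CPM followed the mean standardised profile of the 8 dusk-peaking genes most closely over the 6 libraries were Tnks1bp1 (Pearson r = 0.988), Hk1 (0.986), Pdlim4 (0.985), Rundc1 (0.985) and Zfp46 (0.985). Of 9229 tested genes 140 (1.52%) had r above 0.9. The dusk-peaking genes are part of the profile, which raises their own r. Their values therefore cannot be set against those of genes outside it. Even so they followed it unevenly, with r = 0.94 for Nr1d2, 0.87 for Per2, 0.76 for Dbp and 0.72 for Ciart. The r was lower for Per3 (0.50), Nr1d1 (0.49), Tef (0.42) and Per1 (0.11). The dawn-peaking genes were not all opposed to the profile, with r = -0.76 for Nfil3, -0.35 for Clock, -0.29 for Cry1, -0.03 for Npas2 and 0.00 for Arntl. All points share the 6 libraries and their depth, so the values are a description. Hk1, a hexokinase gene, had 6.22, 9.71 and 11.1 normalised CPM in MEF2C replicates 1, 2 and 3, against 12.7, 7.98 and 9.28 in GFP replicates 1, 2 and 3.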
